A study of Rattus norvegicus with 24 samples.

Results

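In rat mammary carcinomas, 2667 of 89403 autosomal array probes had a higher CpG island methylation level, relative to the array median, in every one of 21 tumors than in any of 3 normal mammary glands. These gained probes were chosen by that pattern alone. The level of a probe was the log2 ratio of Cy5 to Cy3 processed signal minus the median of its array, and a probe qualified when its lowest tumor level lay above its highest gland level. A gain is thus relative to the median probe of each array. A shift of the whole array is taken off with that median, so a gain is not a measure of an absolute rise. The gained probes made up 2.98% of the autosomal probes, while 6398 probes (7.16%) showed the opposite pattern, with every tumor below every gland. Since tumors and glands chose the probes, the values that set tumors against glands describe them and are given with no test.

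Genomic DNA came from female Sprague-Dawley rats. IR-3W tumors (n = 7) arose after pre-pubertal whole-body gamma irradiation with 2 Gy at 3 weeks of age, and IR-7W tumors (n = 7) after the same dose at 7 weeks, past puberty. Spontaneous tumors (n = 7) arose in non-irradiated rats, and the normal mammary glands (n = 3) also came from non-irradiated rats. All rats ate a standard diet when young and a corn oil diet as adults, which promotes mammary tumors. IR-3W tumors 6 and 7 shared a rat, as did IR-7W tumors 1 and 2, so the tumors were not all independent animals. Each sample had 1 array, on which DNA pulled down by a methyl-CpG binding protein carried Cy5 and unenriched DNA of the same sample carried Cy3.

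CpG islands are stretches rich in CG dinucleotides that often cover gene starts, and most stay free of methylation in normal cells. In tumors, some islands gain methylation while much of the rest of the genome loses it, and methylation over a gene start usually goes together with silence of that gene. The binding protein holds fragments by the number of methylated CpGs they carry, so the ratio reads how densely the fragments around a probe were methylated, not the state of 1 base. It also varies with the CpG content around a probe and with the probe's melting temperature. The study set probes of like melting temperature against each other, which was not done here, so levels were compared between samples at the same probes, and a rank among probes is a rank of ratios, not of methylation. The tissues were bulk samples, so more cells with methylated copies and more methylation per cell cannot be told apart, and neither can be told apart from a different mix of cell types in gland and tumor. Probes are named by their array identifiers and by position in the rn4 assembly; the gene tables used here follow another assembly, so no genes were assigned.

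The 3 glands shared their scan day with a single tumor, Spontaneous 3, so scan day and tissue cannot be told apart for the remaining 20 tumors. Cy5 was well above background at 73.0% to 95.6% of probes per array. IR-7W tumor 3 stood apart with a median X chromosome level of 0.21, against 1.92 to 4.91 in the other tumors and 2.20 to 3.00 in the glands. The highest of these X chromosome levels belonged to IR-3W tumor 1, which also had the widest spread of autosomal levels.

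The median gained probe lay below the array median in each gland and above it in each tumor. Their median level was -0.34, -0.46 and -0.55 in normal glands 1, 2 and 3. In the tumors it was lowest at 0.23 in IR-3W 6 and highest at 0.73 in IR-7W 4, and it ran from 0.23 to 0.58 in IR-3W, from 0.45 to 0.73 in IR-7W and from 0.33 to 0.73 in Spontaneous tumors. Ranked among all autosomal probes of the same array, the middle gained probe sat at percentile 28.8 to 35.9 in the glands and at percentile 61.5 to 71.1 in the tumors. The difference between the tumor mean and the gland mean had a median of 1.03 on the log2 scale, with a range of 0.27 to 2.95, beside a median of 0.06 over all autosomal probes. It exceeded 1, a 2-fold ratio, at 1394 gained probes, and 2 at 95, beside 5781 and 168 of all autosomal probes.

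**Figure D1:**
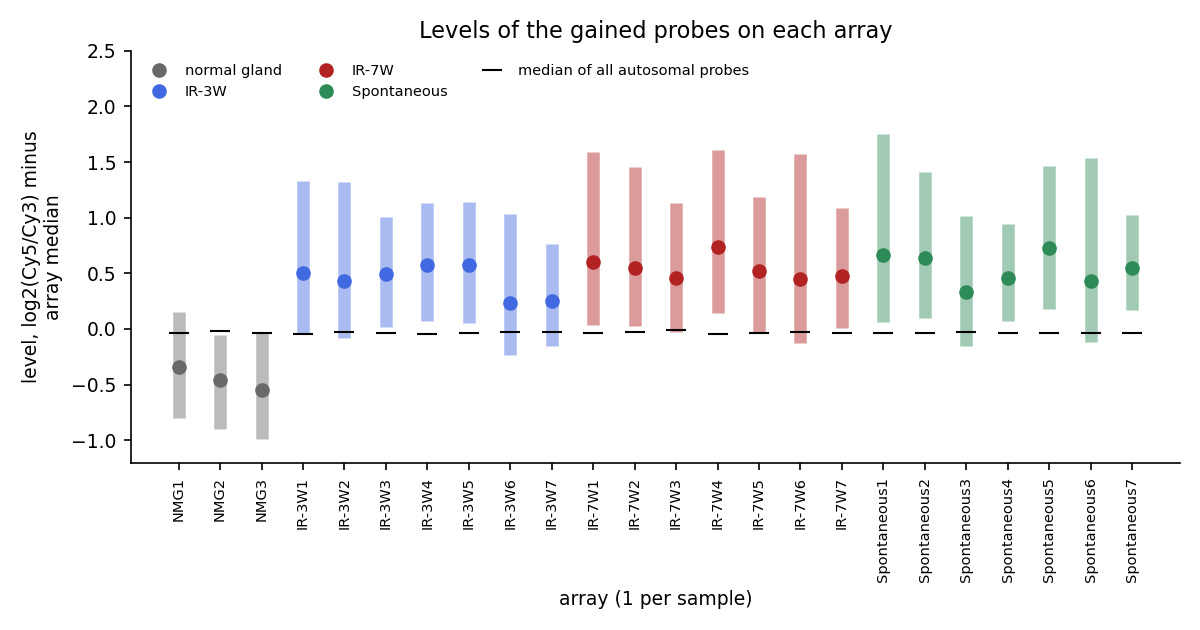
Level of the 2667 gained probes (y axis, log2 Cy5/Cy3 minus the array median) on each of the 24 arrays (x axis, colored by group). Points are medians, bars run from the 25th to the 75th percentile and black dashes are medians of all autosomal probes. Gland medians lay at -0.55 to -0.34 and tumor medians at 0.23 to 0.73, an order that the choice of probes fixes.

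The Cy5 and Cy3 signals form the ratio that chose the probes, so their values here describe the probes. The Cy5 signal, scaled by its array median, was higher in the tumor mean than in the gland mean at all 2667 gained probes. This was so at 56.5% of all autosomal probes. The median Cy5 difference was 1.18, beside 0.09 over all autosomal probes. The Cy5 change was larger than the Cy3 change at 99.7% of gained probes, beside 85.2% of all autosomal probes. The Cy3 signal of unenriched DNA, which follows copy number and hybridization, differed by a median of 0.09, and was lower in the tumors at 672 gained probes (25.2%, beside 48.5% of all autosomal probes). Cy5 was well above background on all 3 glands at 2374 gained probes (89.0%, beside 85.5% of all autosomal probes). It was so on no gland at 62 gained probes (2.32%, beside 4.22%). For those 62 the gland level has only an upper bound. No gained probe was saturated or marked as an outlier spot on any array.

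Most gained probes cleared the glands by little. The gap, the lowest tumor level minus the highest gland level, had a median of 0.14, exceeded 0.5 at 180 probes and exceeded 1 at 3. The smallest gap belonged to A_45_P16271839 (chr2:12356682-12356726), whose levels were -0.373, -0.639 and -0.985 in the glands and -0.373 in the lowest tumor, IR-3W 6, and 0.43 in the median tumor. The next, A_45_P02286351 (chr2:228549437-228549481), had a highest gland at -0.32 and a lowest tumor, IR-7W 6, also at -0.32. Just outside the rule, A_45_P06300525 (chr7:123571803-123571847) missed by less than 0.001, although its tumor mean was 1.87 above its gland mean, a wider difference than at either probe just inside. A_45_P03932330 (chr4:135155650-135155695) missed by less than 0.001 as well, with gland 2 and IR-3W 1 both at -0.12, and its tumor mean was 0.44 above its gland mean.

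The requirement on all 21 tumors cut a continuous distribution. Between 27387 autosomal probes (30.6%, IR-3W 7) and 40518 (45.3%, IR-3W 1) were above all glands in a single tumor. The number of probes that were above all glands in exactly 20 tumors was 2954, in 19 tumors 2821 and in 15 tumors 2537, so the 2667 probes with all 21 tumors formed no separate peak. Of the 2954 probes that missed by 1 tumor, IR-3W 7 was the missing tumor at 691 (23.4%), Spontaneous 3 at 394 (13.3%) and IR-3W 1 at 299 (10.1%). Among the gained probes, the lowest tumor was most often IR-3W 7 (438 probes) or IR-3W 6 (336), which came from the same rat, followed by Spontaneous 3 (281), and least often IR-7W 4 (15). Normal gland 1 was the highest gland at 1441 gained probes, gland 2 at 677 and gland 3 at 549. Without gland 1 the rule found 6139 probes.

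Spontaneous 3, the tumor scanned with the glands, showed a smaller gain. It lay above the gland mean by a median of 0.82 over the gained probes, while the mean of the other 20 tumors lay 1.03 above it. It exceeded the gland mean by over 1 at 934 gained probes, against 1415 for the mean of the other tumors. IR-3W 6 and 7, scanned on other days, had the 2 smaller gains, at 0.69 each.

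The largest gap, 1.18, was at A_45_P03681379 (chr4:80535172-80535226). Its levels were 0.89, 0.28 and 0.72 in glands 1, 2 and 3. The IR-3W tumors ran from 2.07 through a median of 2.66 to 2.87, the IR-7W tumors from 2.25 through 2.92 to 3.29, and the Spontaneous tumors from 2.20 through 2.70 to 4.33. The 3 tumor groups overlapped each other and none reached the glands, and the ratio was 4.38-fold higher in the tumor mean than in the gland mean. A_45_P18585117 (chr4:80535175-80535231), which overlaps it and so reads the same DNA, had the eighth largest gap, with glands at 0.84, -0.01 and 0.88 and tumors from 1.82 to 4.25. A_45_P12232064 (chr20:29547632-29547684) ranged from -0.40 to 0.50 in the glands and from 1.54 to 3.46 in the tumors, a 5.04-fold higher mean ratio.

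At the other wide gaps every gland was below its array median. A_45_P10528695 (chr16:19443281-19443325) was at -2.11, -2.09 and -1.87 in the glands and between -0.84 and 0.66 in the tumors. A_45_P05429213 (chr6:93054402-93054458) was at -1.78, -1.92 and -2.89 in the glands, where Cy5 was not well above background on any of the 3, and between -0.81 and 0.92 in the tumors, where it was so on 17 of 21. Its measured means were -2.20 and -0.06, and no fold is given. A_45_P24009701 (chr13:96666203-96666247) showed the least spread among the tumors of these 8, from 0.02 to 0.91, with glands at -1.21, -0.93 and -0.95. At the first and last of these 3 probes Cy5 was well above background on 2 of the 3 glands, and in 21 and 19 of the 21 tumors.

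The remaining 2 of the 8 were also below the array median in the glands. A_45_P24478942 (chr14:83904055-83904104) was at -0.63, -0.69 and -0.90 in the glands, and the medians were 0.78 (IR-3W), 1.29 (IR-7W) and 0.72 (Spontaneous), with tumors from 0.36 to 2.73. A_45_P15816205 (chr1:185857954-185857998) was at -0.83, -0.99 and -0.87 in the glands and from 0.15 to 3.13 in the tumors. Of the IR-3W tumors 6 lay between 0.25 and 0.52, and IR-3W 1 alone reached 2.02.

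**Figure D2:**
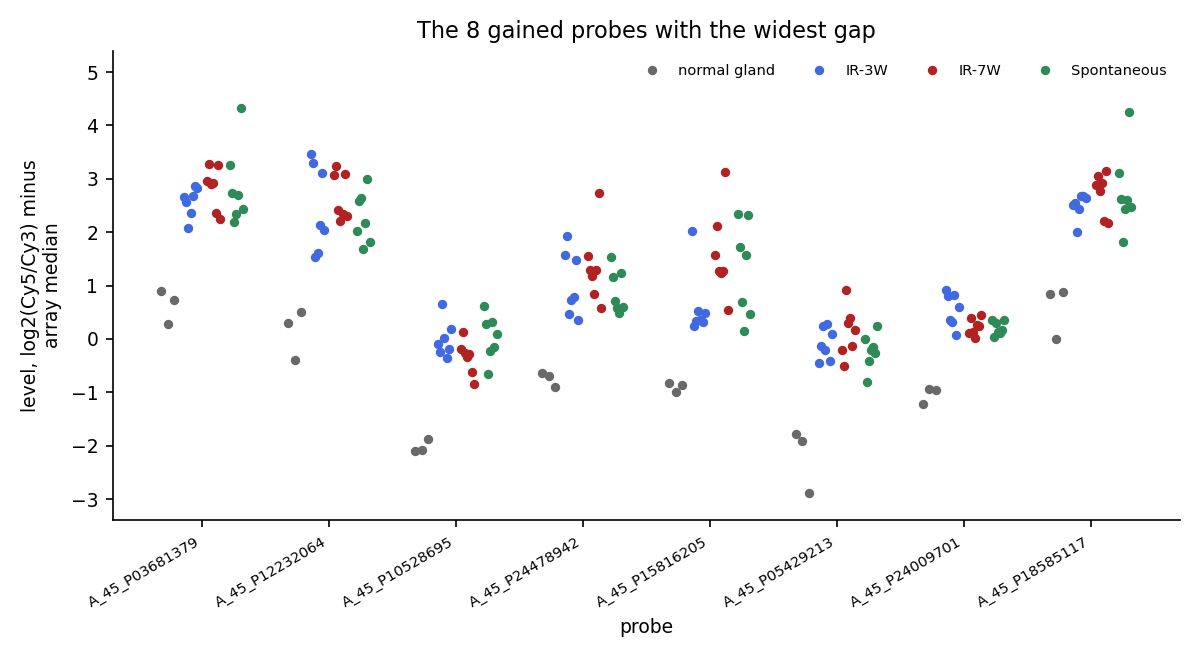
Level of the 8 gained probes with the widest gap (x axis, by probe) in every sample (y axis, log2 Cy5/Cy3 minus the array median). Each point is 1 sample, colored by group, with 3 glands and 7 tumors per tumor group. The gap was 1.18 at the first probe and 0.94 at the last, and the tumor groups overlapped one another at each of the 8.

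The gained probes were more frequent among probes with low ratios in the gland. When the autosomal probes were divided into deciles by mean gland level, gained probes made up 4.89%, 4.92% and 4.63% of the lowest 3 deciles, 1.51% of the eighth and 0.0224% (2 probes) of the highest. Probes with every tumor below every gland followed another order, with none in the lowest decile, 23.9% of the eighth and none in the highest. The deciles rest on the same gland values as the rule, so this order describes the probes and is no separate result.

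**Figure D3:**
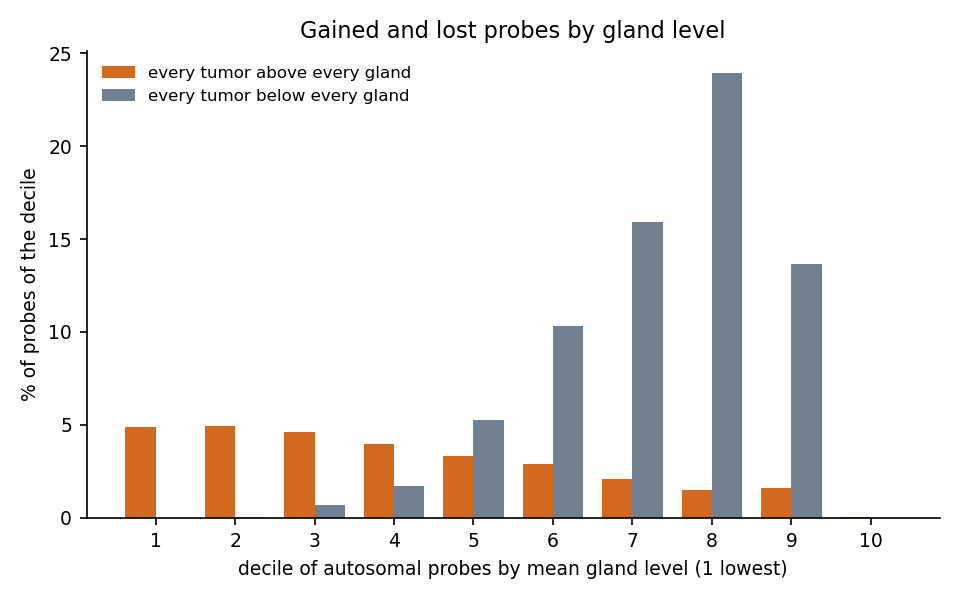
Percentage of probes (y axis) that lay above every gland in every tumor (orange) or below every gland in every tumor (gray), by decile of the mean gland level of autosomal probes (x axis). Gained probes peaked at 4.92% in the second decile and lost probes at 23.9% in the eighth.

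Gained probes were on every autosome. Their share of a chromosome's probes was lowest on chromosome 9 (58 of 3242, 1.79%) and highest on chromosome 6 (165 of 4238, 3.89%) and chromosome 3 (265 of 6970, 3.80%). Of 2032 windows of 1 Mb that held probes, 950 held gained probes, and 25 windows with over 10 of them together held 385. The richest window, chr4:80000001-81000000, held 36 gained probes among 196, in 10 of its 27 runs of probes, with 1 probe that was below all glands in all tumors. The window chr3:57000001-58000000 held 24 among 115, in 9 of 21 runs. Neighboring probes can read the same fragments, so counts within a window or run are not independent.

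A run, here a series of probes at most 1000 bp apart, was taken to stand for 1 island. Gained probes lay in 1863 of 13856 autosomal runs (13.4%). In 1439 of these runs a single probe qualified, 424 runs held 2 or more, and 169 held 3 or more, which together took in 718 gained probes (26.9%). The other probes of an island tended to lie on the same side. In the runs with 3 or more gained probes, 90.4% of the 1555 remaining probes had a higher mean in tumors than in glands, with a median difference of 0.78, whereas in runs with no gained probe this was so for 51.3% of 72881 probes, with a median of 0.01. Over all runs with gained probes, 67.0% of the 13855 remaining probes were higher in the tumor mean, and 397 of the 1863 runs also held a probe that was below all glands in all tumors. Of 400 pairs of probes that overlapped by 30 bp or more and held a gained probe, both qualified in 88 (22.0%), and of the 312 partners that did not, 304 still had a higher mean in the tumors. Over all autosomal probes 55.2% had a higher mean in the tumors. The partners read much of the same DNA as a chosen probe, so their direction is no separate result.

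Runs of over 10 probes held a larger share of gained probes than shorter ones. It was 2.59% for probes with no neighbor within reach, 2.58% in runs of 2 to 3 probes, 2.55% in runs of 4 to 6, 2.65% in runs of 7 to 10, 3.97% in runs of 11 to 20 and 4.61% in runs of over 20. Within runs of at least 6 probes, cut into 3 equal lengths, gained probes made up 3.48% of the outer lengths and 2.26% of the middle. The lost probes were placed the other way, with 5.48% of the outer lengths and 12.8% of the middle.

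The run with the most gained probes was at chr15:66391773-66394493, where 15 of 35 probes qualified and all 35 had a higher mean in the tumors, by 0.51 to 1.70. The mean level over the run was 0.92, 0.49 and 1.20 in glands 1, 2 and 3. The tumors ran from 1.54 (Spontaneous 3) through a median of 2.27 to 3.26 (IR-3W 1). Its widest gap was at A_45_P10221160 (chr15:66392678-66392722), with glands at 1.26, 0.79 and 1.29 and a lowest tumor of 1.79.

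At chr3:154075648-154077271, 11 of 18 probes qualified and 17 had a higher mean in the tumors, the exception having a difference of -0.08. Over the run the glands were at -0.25, -0.38 and -0.13. The IR-3W tumors, from 0.08 to 0.71, overlapped the IR-7W tumors, from 0.69 to 1.58, only at their upper end, and Spontaneous tumors ran from 0.36 to 2.31. At its leading probe, A_45_P18123184 (chr3:154076074-154076128), the medians were 0.08 (IR-3W), 0.95 (IR-7W) and 1.05 (Spontaneous), against glands at -1.04, -1.30 and -0.89. In the limma tests between tumor groups given below, neither difference of IR-3W at this probe passed. The limma adjusted p was 0.194 against IR-7W and 0.385 against Spontaneous tumors.

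At chr5:120330924-120331903, 10 of 12 probes qualified and all 12 had a higher mean in the tumors, by 0.99 to 2.26. The glands were at -0.43, -0.76 and -0.61 over the run, and the tumors spread widely, from 0.25 (IR-3W 1) through 1.31 to 2.48 (Spontaneous 6). Its leading probe, A_45_P19583762 (chr5:120331491-120331535), had a gap of 0.93, with tumors from -0.08 to 2.37, and Cy5 well above background on 2 of the 3 glands. This run tied at 10 gained probes with a pair of others on the same chromosome, chr5:136390983-136393146 (10 of 18 probes, widest gap 0.66) and chr5:135263840-135265035 (10 of 12, widest gap 0.65), and was placed ahead of them by its gap.

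**Figure D4:**
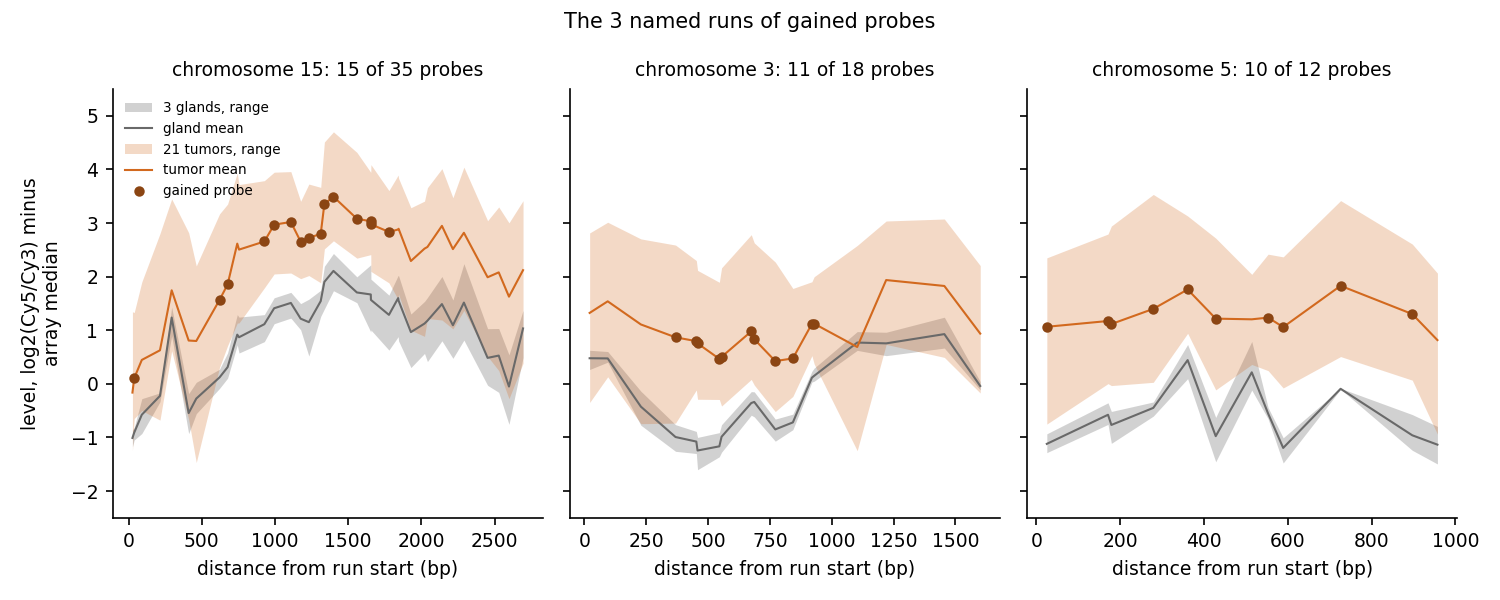
Levels along the 3 named runs of gained probes (y axis, log2 Cy5/Cy3 minus the array median) by distance from the run's first base (x axis, bp). Lines are means of 3 glands (gray) or 21 tumors (orange), bands run from the lowest to the highest sample, and dots mark gained probes. The probes that qualified numbered 15 of 35, 11 of 18 and 10 of 12, and the tumor mean lay above the gland mean at every probe but 1 of the middle panel.

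How the number compares with that for any other 3 of the 24 arrays was counted over all 2024 choices. On average 44.2 autosomal probes had a given 3 arrays as the lowest of the 24, and the median over the other 2023 choices was 23. The 3 glands ranked second with 2667. The highest number, 5322, belonged to Spontaneous tumors 4, 5 and 7, all scanned on 1 day and on slides that they shared with each other or with IR-7W 4. Of the 5322, 4846 (91.1%) lay in the top decile of mean level over the 24 arrays, where the glands had 42 of 2667 (1.57%), which left 476 against 2625 in the other deciles. The median gap was 0.20 for these tumors and 0.14 for the glands, and a gap over 0.5 was found at 78 and 180 probes. With quantile normalization, which gives every array the same spread of levels, the numbers were 516 for these tumors and 2292 for the glands. With every array scaled to the same median absolute deviation they were 4878 and 2754. With the background of the raw spot signals corrected by normexp they were 128 and 954. The median gap was then 0.07 for these tumors and 0.04 for the glands, and neither had a gap over 0.5 at any probe.

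Next came gland 2 with Spontaneous 4 and 7 (1616), and then glands 2 and 3 with IR-3W 7 (1549). Over the 44 choices of 3 tumors from 1 scan day the numbers ran from 4 to 5322, with a median of 30. Taking Spontaneous 3 in place of a gland, on the same scan day, left 261 to 485 probes. For the opposite pattern, 3 arrays above all others, the glands had the most with 6398, and the next choice had 1539. The choices share arrays and the probes share islands, so these counts describe the 24 arrays and carry no p-value.

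**Figure D5:**
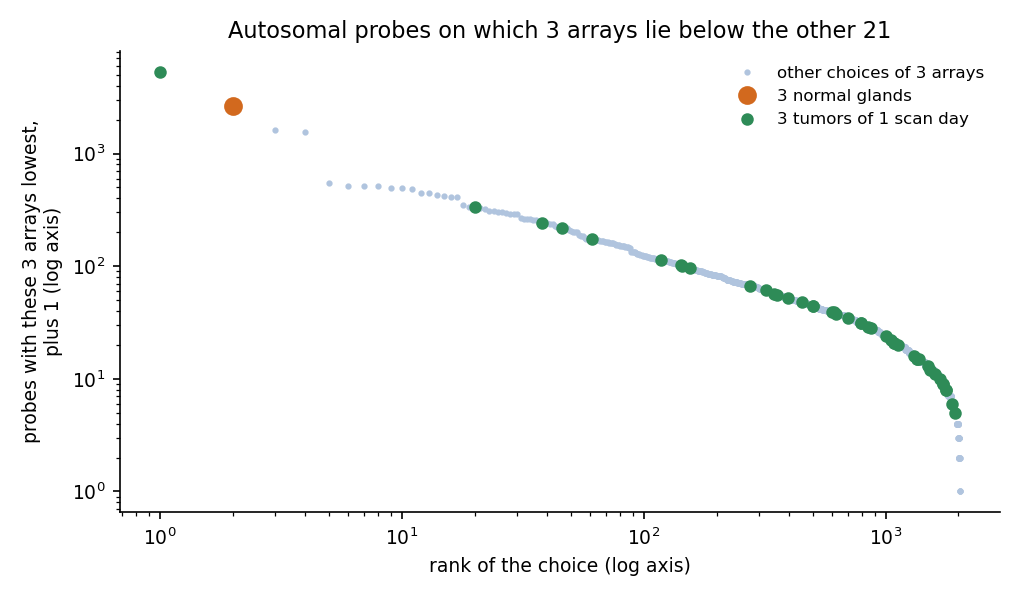
Number of autosomal probes, plus 1, on which 3 given arrays were the lowest of 24 (y axis, log scale) for each of the 2024 choices by rank (x axis, log scale). The 3 glands (orange, 2667) ranked second behind Spontaneous 4, 5 and 7 (5322), and the other choices of 3 tumors of 1 scan day are in green.

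The number depended on the processing. Of the 2667 probes, 2096 were also found with quantile normalization (2292 in all) and 2361 with arrays scaled to the same spread (2754 in all). When the background of the raw spot signals was corrected by normexp with an offset of 50 in place of the processed signals, 954 probes qualified and 245 were shared. With normexp 2652 of the 2667 (99.4%) still had a higher mean in the tumors, but the median difference was 0.36 in place of 1.03 and the median gap -0.27, so the tumors and glands overlapped at most of them.

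Whether the gained probes differed between the tumor groups was tested with limma on all 93024 probes, with Benjamini-Hochberg adjustment over all of them. The rule used no difference between tumor groups, but it did use the lowest level of these same tumors. The gained probes were thus not chosen independently of the tested values. Their median SD over the tumors was 0.37, beside 0.43 over all autosomal probes. The shares set beside those of all probes describe the gained probes. For IR-7W against IR-3W, 0 of the 2667 gained probes and 0% of all probes passed an adjusted p of 0.05, by limma or by an unmoderated test of the same values. At an unadjusted p under 0.05, 317 gained probes passed (11.9%, beside 6.5% of all probes). At an unadjusted p under 0.005, 96 gained probes passed, of which 95 (3.56%) were higher in IR-7W, beside 0.967% of all probes, and 1 (0.0375%) was lower, beside 0.236%. The 95 lay in 71 runs, with at most 5 in a run, and were higher in IR-7W by 0.60 to 1.49, with a median of 0.97. Their lowest adjusted p was 0.109. Their median level was -0.28, -0.49 and -0.52 in the glands, 0.28 to 0.80 in the IR-3W tumors, 1.05 to 1.99 in the IR-7W tumors and 0.63 to 2.08 in the Spontaneous tumors. A median taken over probes picked for a group difference lies apart between those groups by that choice.

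The 96 (3.60% of gained probes, beside 1.20% of all probes in both directions) depended on the fit, as did the count over all probes. With the slide as a block 20 passed (0.75%, beside 0.348% of all probes), with normexp 42 (1.57%, beside 0.485%), and without both tumors of the rat that gave IR-3W 6 and 7 there were 55 (2.06%, beside 1.00%). Without IR-3W 1 the count was 145 (5.44%, beside 1.56%), and with scan day as a block 72 (2.70%, beside 0.935%). Within the 4 scan days that held both groups (2, 4, 2 and 5 tumors), the median difference over the gained probes was 0.10, 0.02, 0.15 and 0.03, beside 0.08, -0.10, -0.04 and 0.01 over all probes. Over all 14 tumors the median difference was 0.05 for the gained probes and -0.03 for all probes. Without IR-7W 7, 11 gained probes among 82 probes passed the adjusted threshold, and with quantile normalization 4 among 13.

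The smallest p for a gained probe higher in IR-7W was at A_45_P06287032 (chr7:121276227-121276271). Its levels ran from 1.00 through a median of 1.64 to 2.03 in IR-3W and from 2.32 through 2.66 to 2.95 in IR-7W, while Spontaneous tumors spread over both, from 1.32 to 3.05. IR-7W was 1.09 ± 0.18 (SE) higher than IR-3W (limma adjusted p = 0.109), so it did not pass. Its glands were at 0.94, 0.37 and 0.94. The gained probe lower in IR-7W with the smallest p, A_45_P09845784 (chr14:99834811-99834864), ran from 0.95 to 1.67 in IR-3W and from 0.68 to 1.11 in IR-7W, a difference of -0.52 ± 0.14 (SE; limma adjusted p = 0.286), with Cy5 well above background in 20 of 21 tumors.

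For IR-3W against Spontaneous tumors, 0 gained probes passed the adjusted threshold, beside 0.0086% (8) of all probes, and the unmoderated test passed 1 probe, which was no gained probe. At an unadjusted p under 0.05, limma passed 284 gained probes (10.6%, beside 10.2%). At an unadjusted p under 0.005, 51 gained probes (1.91%) were lower in IR-3W, beside 0.721% of all probes, and 1 (0.0375%) was higher, beside 0.485%. This comparison shares its IR-3W tumors with the one before. The 51 had a median difference of -0.91. The 52 (1.95%, beside 1.21% of all probes in both directions) became 24 without the rat of IR-3W 6 and 7 (0.90%, beside 1.04%) and 20 with normexp (0.75%, beside 0.254%). They became 105 with quantile normalization (3.94%, beside 2.28%) and 163 with scan day as a block (6.11%, beside 1.88%), under which 5 gained probes among 73 probes passed the adjusted threshold, all 5 of them lower in IR-3W, as were 63 of the 73. Leaving out Spontaneous 3 gave 84 (3.15%, beside 1.34%), and leaving out Spontaneous 5 gave 31 (1.16%, beside 0.715%). The median difference over the gained probes was -0.15 and 0.08 within the 2 scan days that held both groups, opposite in sign, beside 0.10 and -0.10 over all probes. Over all 14 tumors it was -0.06 for the gained probes and 0.05 for all probes.

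A_45_P00952078 (chr1:205270188-205270232) had the smallest p among these. The IR-3W tumors lay between -0.58 and -0.11, the Spontaneous tumors between 0.16 and 1.27 and the IR-7W tumors between -0.33 and 2.17, over glands at -0.82, -0.62 and -0.66. The difference of IR-3W from Spontaneous was -1.04 ± 0.18 (SE; limma adjusted p = 0.212). In the other direction, A_45_P03476521 (chr4:39039594-39039642) ran from 0.28 to 2.20 in IR-3W and from -0.22 to 0.65 in Spontaneous tumors (limma adjusted p = 0.385). Its Cy5 was well above background in none of the glands and in 11 of 21 tumors, and Cy3 on 15 of 24 arrays, so no size is given for its differences. The measured means were 0.64 in tumors and -0.41 in glands.

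For IR-7W against Spontaneous tumors, 0 gained probes and 0% of all probes passed the adjusted threshold in limma or in the unmoderated test. At an unadjusted p under 0.05, limma passed 92 (3.45%, beside 3.93%). At an unadjusted p under 0.005, 3 gained probes (0.112%) were higher in IR-7W, beside 0.181% of all probes, and 1 (0.0375%) was lower, beside 0.129%, shares below those of the whole array. These 4 depended on the fit and on single tumors. There were 0 without IR-7W 2 or IR-7W 6 (beside 0.281% and 0.227% of all probes) and 2 (0.075%) without IR-7W 3 or Spontaneous 7 (beside 0.259% and 0.211%). There were 7 (0.262%) without IR-7W 4 or IR-7W 5 (beside 0.37% and 0.292%), and 8 (0.30%) without Spontaneous 1 or Spontaneous 6 (beside 0.516% and 0.611%). The unmoderated test gave 8, all lower in IR-7W (0.30%, beside 0.344%), quantile normalization 9, of which 4 were higher (0.337%, beside 0.367%), and arrays scaled to the same spread 7, of which 4 were higher (0.262%, beside 0.333%), which lie nearer to the share of the whole array. Normexp, the slide block and the scan day block gave 1 each (0.0375%, beside 0.0677%, 0.363% and 0.253%). The smallest p in each direction was at A_45_P10530759 (chr16:19822970-19823014), with IR-7W 0.71 ± 0.21 (SE) higher, and at A_45_P07409203 (chr9:74193282-74193330), with a difference of -0.57 ± 0.17 (SE), both with a limma adjusted p of 0.911. At the first, IR-7W tumors ran from 0.18 to 1.28 and Spontaneous tumors from -0.64 to 0.39. At the second they ran from -1.24 to -0.18 and from -0.28 to 0.38. At both, Cy5 was well above background on 2 of the 3 glands, and it was so in 17 and 19 of the 21 tumors.

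Tumors of the same rat did not stand out as pairs. With the mean over the 21 tumors taken off each gained probe, IR-3W 6 and 7 correlated at r = -0.08 across the gained probes and IR-7W 1 and 2 at r = 0.12, ranks 108 and 49 among the 210 pairs of tumors. The closest pair was Spontaneous 4 and 7 (r = 0.65), which shared a slide and a scan day, followed by IR-3W 3 and 4 (r = 0.53), which shared a scan day. The next were IR-3W 2 and 6 (r = 0.44), which shared neither, IR-7W 4 and Spontaneous 5 (r = 0.42), which shared both, and IR-3W 3 and Spontaneous 7 (r = 0.41), which shared neither. These are correlations across probes, which are not independent replicates, and what slide and scan day add to them was not tested.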

How the data were processed

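Methylation was measured in 24 samples (3 normal mammary glands, 7 tumors in each of 3 groups) on a 105K rat CpG island array of 12 slides scanned on 6 days. The authors extracted the deposited spot intensity values with Agilent Feature Extraction 10.7.3.1, which subtracted background and scaled the dyes linearly per the file headers. Probe positions are those of the rn4 assembly. The authors also deposited a table of ratios of the extracted signals, taken here as log2 and not as log10 values. Of these ratios, 97.9% to 99.6% per array equal the log2 scanner ratio within 0.001, and the table served as an alternative. Control spots were left out and 93024 probes used. The members and lists were chosen with earlier results of these data known.

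Levels were log2 Cy5/Cy3 ratios of processed signal minus the array median. Gained probes were found on the 20 autosomes. Tumor groups were compared in limma 3.58.1 (R 4.3.3), with the tumors of the 2 groups only, at a Benjamini-Hochberg adjusted p of 0.05, and counts are also given at an unadjusted p of 0.005, without the minimum difference in log odds that the study also required. Named were the 8 gained probes with the largest gap, the 3 runs with the most (ties by the largest gap), the 2 on each side of the rule's limit, and the smallest p in each direction per comparison. As a check on simulated data, the IR-7W against IR-3W comparison was run with 93024 probes of which 200 were shifted by 4 SD, and found 187 of these with 13 false calls. The simulated probes were independent and the SD was taken over both groups together. The check therefore does not show how many smaller differences would be found. Alternatives were the deposited table, normexp (offset 50), equal spread, quantile normalization, filters on background and outlier spots, stricter and looser rules, blocks for slide, scan day and replicate number, an unmoderated t-test on the log2 ratios (the study ran its t-tests on log odds scores), 1 tumor per rat and leaving out each array. Leaving out the tumors of scan day 6, or the rat of IR-3W 6 and 7, was added after seeing the data. Gene lists were not applied, since probes were not paired with genes here.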

Additional observations from a re-analysis of the deposited data

Results flagged for a closer look

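Among 72 sets of 7 tumor values (named probes and per-array summaries), 5 held a tumor far from the other 6, where chance gives about 1 in 20. IR-3W 1 was at 2.02 at A_45_P15816205, with the other IR-3W tumors between 0.25 and 0.52. IR-3W 3 was at 2.01 at A_45_P18585117, below the others at 2.43 to 2.68. IR-3W 4 was at -0.11 at A_45_P00952078, above the others at -0.58 to -0.41. IR-3W 2 was at 1.84 at A_45_P10530759, against -0.41 to 0.55. Spontaneous 5 was at 0.38 at A_45_P07409203, against -0.28 to -0.01.

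Outside the autosomes the same pattern, every tumor above every gland, was found at 1 of 2494 X chromosome probes (0.0401%), also without IR-7W 3, and at 34 of 1127 probes on unplaced sequence (3.02%). These probes were not part of the gained set.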

How the results depend on the processing

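The number of gained probes (2667) stayed between 2210 and 2995 with the deposited table, equal spread, quantile normalization, autosomal centering, the background and outlier filters and without scan day 6. It was 954 with normexp, 180 with a gap of at least 0.5 and 5621 with the second lowest tumor, and 2686 to 6139 when 1 array was left out. For IR-7W against IR-3W, 0 probes and 0 gained probes passed the adjusted threshold. The counts were 1120 and 96 at an unadjusted p under 0.005 and 13 and 4 with quantile normalization, and 1 probe passed with the first tumor of each rat or without the rat of IR-3W 6 and 7. Leaving out 1 tumor gave 0 to 82 probes and 0 to 11 gained probes. For IR-3W against Spontaneous, 8 probes and 0 gained probes passed, 1122 and 52 at the unadjusted threshold, 21 and 4 with quantile normalization and 73 and 5 with scan day as a block. The 8 became 0 with normexp, equal spread, all 21 tumors in the fit, slide as a block or without that rat, 1 with the unmoderated test, 4 with the first tumor of each rat, and 0 to 9 (gained probes 0) when 1 tumor was left out. For IR-7W against Spontaneous the unadjusted threshold gave 288 and 4, and the other alternatives gave 0. Replicate numbers did not pair the samples: same-numbered tumors deviated together with r of -0.22 to 0.52, over 0.1 in 1, 2 and 2 of 7 pairs, and a replicate block left 0 probes in each comparison. The cause of these changes was not tested. With 3 glands, all of 1 scan day, and 7 tumors per group, the number of arrays limits precision, and at 62 gained probes Cy5 was not well above background on any gland.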
